A study of Caenorhabditis elegans with 2 samples.

Results

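Peaks of eGFP-tagged NHR-23 that lay inside introns, away from annotated gene starts, numbered 735 of the 4944 thresholded peaks (14.9%, exact 95% interval 13.9 to 15.9). A peak was taken when its summit lay within a protein-coding gene, in no annotated exon, and more than 500 bp from every protein-coding transcript start. Among the thresholded peaks only position entered this choice, so signal, recurrence, sequence and host identity were not used by it. Pooled signal had already entered the thresholded list, which holds the 4944 strongest peaks of the pooled list. The 735 summits came from 732 distinct intervals and fell in 494 host genes. The peaks were from chromatin immunoprecipitation and sequencing (ChIP-seq) of whole Caenorhabditis elegans larvae at stage L3, males and females pooled. The strain was OP43, with the genotype unc-119(ed3) III; wgIs43, in which the integrated transgene wgIs43 targets nhr-23, and whose regulatory sequences and copy number are not given in the labels. All samples share this genotype and form 1 group of 2 biological replicates, which leaves no conditions to compare. The control that the labels name was not analysed here. The lists held 30000 peaks for replicate 1 and 27191 for replicate 2, and since they carry no read counts, the depth is unknown and intervals cover counting error only.

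NHR-23, a member of the ROR family of nuclear receptors, is needed for molting, the shedding and rebuilding of the cuticle at the end of each larval stage. ROR receptors are known, mainly from mammals, to bind DNA as monomers at a nuclear receptor core element that follows an A/T-rich stretch. In C. elegans most introns are very short, while a minority of long introns is known to hold enhancers, alternative promoters and nested non-coding genes. A whole-larva immunoprecipitation averages over all tissues, so the cells in which an intronic site was occupied cannot be read from it.

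The DNA at the strongest intronic summits is shown first, because later counts of short sequence strings refer to it. Each line gives 101 bases of the plus strand of ce11 centred on a summit, taken from the RefSeq genome sequence of the same assembly, with the nuclear receptor core element, AGGTCA or GGGTCA on either strand, in capitals. The first 6 are the strongest intronic peaks, 1 per interval, and only that in mom-1 holds the element. They lie at chrIII:7814884-7814984, chrX:6296533-6296633, chrX:2997070-2997170, chrIII:1925272-1925372, chrIII:12612606-12612706 and chrIII:8795805-8795905.
egl-5: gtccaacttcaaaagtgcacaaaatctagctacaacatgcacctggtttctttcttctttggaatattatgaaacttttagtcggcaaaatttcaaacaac
mom-1: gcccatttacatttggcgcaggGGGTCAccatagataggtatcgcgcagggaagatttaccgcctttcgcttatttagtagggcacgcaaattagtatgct
Y41G9A.17: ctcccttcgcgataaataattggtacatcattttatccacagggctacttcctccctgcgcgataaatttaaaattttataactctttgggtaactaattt
pqn-41: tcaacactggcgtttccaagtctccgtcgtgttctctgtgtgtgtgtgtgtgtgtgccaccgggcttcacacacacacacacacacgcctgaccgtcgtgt
Y111B2A.12: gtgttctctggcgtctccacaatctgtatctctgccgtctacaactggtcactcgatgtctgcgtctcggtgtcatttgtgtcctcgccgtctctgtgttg
zfp-1: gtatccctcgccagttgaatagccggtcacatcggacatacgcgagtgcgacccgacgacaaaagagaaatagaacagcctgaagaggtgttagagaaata
The next 3 also hold the element, with pooled ranks of 180, 232 and 405. A summit in Y48G8AL.15, of rank 242, holds it too and is not shown. The 3 windows are at chrX:11061040-11061140, chrV:5768331-5768431 and chrII:14844421-14844521.
lpr-6: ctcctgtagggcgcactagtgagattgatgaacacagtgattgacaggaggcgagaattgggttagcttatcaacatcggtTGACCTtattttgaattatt
pgph-2: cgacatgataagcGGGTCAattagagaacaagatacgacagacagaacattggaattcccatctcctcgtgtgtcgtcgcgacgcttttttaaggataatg
cdh-7: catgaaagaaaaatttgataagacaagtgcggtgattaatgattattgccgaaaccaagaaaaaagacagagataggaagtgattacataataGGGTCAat
The element began 28 bp before the summit base in mom-1 and 37 bp before it in pgph-2. In lpr-6, where it reads as its reverse complement TGACCT, it began 31 bp after the summit base, and in cdh-7 43 bp after it. The summit windows differ widely in base composition, from 32.7% GC in cdh-7 to 56.4% in pqn-41, whose window is built around runs of alternating GT and CA.

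Intronic sequence was sparsely occupied compared with the sequence around starts. The bases that meet the positional rule add up to 25.9 Mb, or 25.8% of the genome, and held 28.4 peaks per Mb. Bases within 500 bp of a start held 101 peaks per Mb, distal bases outside genes 55.2, exonic bases away from starts 10.5 and the whole genome 49.3. The density in introns was thus 0.576 times that of the genome, while near starts it was 2.05 times. Intronic peaks were also weaker on the whole than those near starts. Their pooled signal, the authors' own measure of enrichment per peak, ran from 34.3 to 892.5 with a median of 56.7, against a median of 64.9 near starts, 57.7 in distal sequence and 49.4 in exons. In ranks, the median intronic peak stood at percentile 45.3 of all thresholded peaks, the median peak near a start at 55.0, the median distal peak at 46.8 and the median exonic peak at 34.0. Among the 494 strongest peaks of the list, 55 were intronic, which is 7.48% of the intronic peaks (exact 95% interval 5.69 to 9.63), against 12.1% (10.8 to 13.5) of the peaks near starts. Peaks are not replicates of a condition, so these values describe 1 pooled list and carry no p-value.

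Most intronic sites were found in both larval samples. Of the 735 summits, 711 were covered by peaks in each of the full replicate lists, 13 were missing from replicate 1's list and 11 from replicate 2's, and none was missing from both. Over the whole thresholded list 4773 of 4944 summits were covered in both, a similar share, so this recurrence is not particular to introns. Since the full lists were called permissively, a stricter count used as many of the strongest peaks of each replicate as the thresholded list holds. By that count 482 intronic peaks (65.6%, exact 95% interval 62.0 to 69.0) were among the strongest of both replicates, against 67.4% of all thresholded peaks, 70.7% of those near starts and 65.2% of distal ones. A further 92 were among the strongest of replicate 1 alone, 140 of replicate 2 alone and 21 of neither. The interval of the intronic share holds the share of all peaks. Over the 711 peaks in both lists the median signal was 27.6 in replicate 1 and 33.9 in replicate 2, and matched summits lay a median of 32 bp apart. Spearman's rho between the replicate signals was 0.523 and Pearson's r, on log10 values, 0.569, given as a description across peaks that share 2 libraries.

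**Figure D1:**
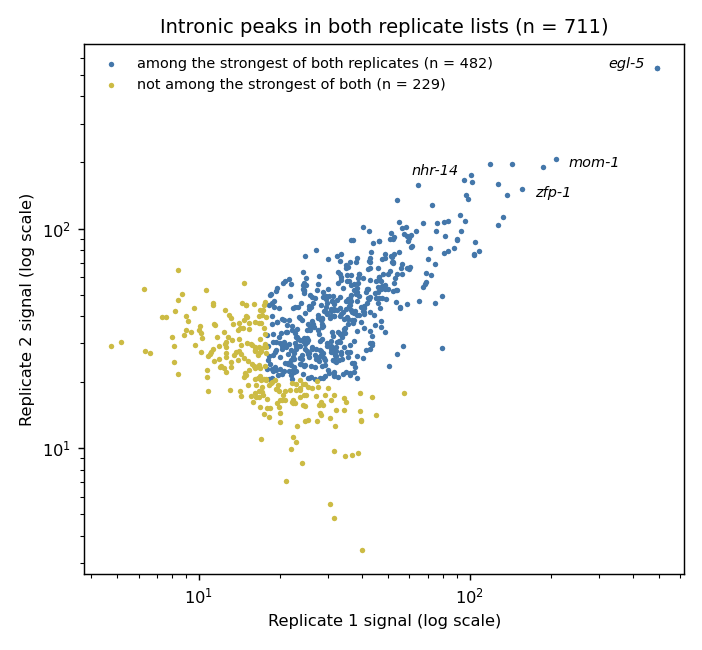
Signal of each intronic peak found in both replicate lists (711 points, both axes on a log scale), replicate 1 on the horizontal and replicate 2 on the vertical axis. Blue points (482) were among the strongest peaks of both replicates; the egl-5 peak stands apart at the upper right.

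The strongest intronic peak lay in egl-5, the Hox gene of Abdominal-B type that patterns the tail. Its pooled signal was 892.5, rank 2 of all 4944 peaks, and its interval was the strongest of each replicate's list, at 493 in replicate 1 and 537.5 in replicate 2. The summit sat in the first of 3 introns, an intron of 482 bp, at 554 bp from the nearest annotated start. A further summit of the same interval, with a pooled signal of 274, fell in the last intron of egl-5 and took the same pair of replicate values, so the egl-5 values count 1 occupied region of 2666 bp. Without this interval the thresholded list held 4940 peaks in place of 4944, and 733 intronic peaks in place of 735. Other summits of the interval were thus classed as not intronic.

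The next strongest intronic peak, rank 18, was in the last of 7 introns of mom-1, the Porcupine homolog needed for Wnt secretion, with a pooled signal of 410, 209 in replicate 1 and 206.5 in replicate 2. Rank 24 was in the last of 6 introns of Y41G9A.17, at 371, with 186 in replicate 1 and 190.1 in replicate 2. For both genes the replicates lay close together, and the summit was far from any start, at 3359 bp in mom-1 and 2632 bp in Y41G9A.17. Rank 29 was in intron 14 of 21 of pqn-41, which encodes a glutamine-rich protein needed for the death of the linker cell, at 341.5, with 144 in replicate 1 and 197 in replicate 2. Rank 45 was in intron 4 of 7 of Y111B2A.12, at 313, with 119 in replicate 1 and 197.0 in replicate 2. These replicate pairs differed more, with replicate 2 the higher in each. The peak in zfp-1, the homolog of the human chromatin factor AF10, ranked 58 with a pooled signal of 294, 156.5 in replicate 1 and 151 in replicate 2.

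The other 6 hosts of the strongest 12 had signals below those. In nhr-14, which encodes a nuclear hormone receptor, the peak of rank 64 had a signal of 280.5, with 101.5 in replicate 1 and 174.5 in replicate 2. In mnk-1, a kinase of the family that acts downstream of MAP kinases, the signal was 278, with 128 in replicate 1 and 160 in replicate 2. In epg-9, an autophagy gene, it was 277, with 138 in replicate 1 and 143 in replicate 2. The remaining hosts were ell-1, a homolog of the transcription elongation factor ELL, at 257, D2023.3 at 256 and Y43F8B.2 at 235.5. In each of these last 3 genes replicate 2 was the higher, with 102.5 against 164 in ell-1, 95.7 against 167 in D2023.3 and 96.9 against 142 in Y43F8B.2. The ell-1 window was the only one of the 12 made mostly of 31-base words that recur elsewhere in the genome, which was so for 6 of all 735 intronic windows. In the 12 genes the intron holding the peak was the first in egl-5 and ell-1 and a later one in the others, and its length ran from 385 bp in nhr-14 to 14129 bp in ell-1.

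Across all intronic peaks, first introns and long introns held more than their share. The order was counted from the 5′ end in the longest transcript of the host with the summit in an intron, which exists for 734 peaks. First introns held 234 of them (31.9%, exact 95% interval 28.5 to 35.4) in 17.1% of the eligible bases. The density was 53.1 peaks per Mb in first introns, 33.4 in the second, 23.7 in the third, 25.7 in the fourth and 19.1 in later ones. Where an intron was called first if it is so in any annotated transcript of the host, 329 peaks (44.8%) lay in 23.5% of the eligible bases, at 54.3 per Mb against 20.5 in the rest.

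Intron length moved with these densities. The introns with peaks had a median length of 3063 bp (quartiles 1052 and 6738), against 64 bp over all 103646 introns of the longest transcripts, many of which are too short to hold an eligible base. Per Mb of eligible sequence there were 13.8 peaks in introns under 1 kb, 21.4 in those of 1 to 2 kb, 45.1 in those of 2 to 5 kb, 73.7 in those of 5 to 10 kb and 61.6 in those of 10 kb and over. Introns of 5 kb and over thus held 178 and 82 peaks in 9.37% and 5.16% of the eligible bases. First introns were denser than later ones in each class under 5 kb, with 19.5 against 13.4 under 1 kb, 43.5 against 17.5 at 1 to 2 kb and 63.6 against 37.9 at 2 to 5 kb. At 5 to 10 kb the values were close, at 79.2 and 70.1, and at 10 kb and over the first introns were the sparser, at 53.2 from 34 peaks against 69.5 from 48. Signal did not follow density, since the median percentile was 45.2 under 1 kb, 40.3 at 5 to 10 kb and 52.9 at 10 kb and over.

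**Figure D2:**
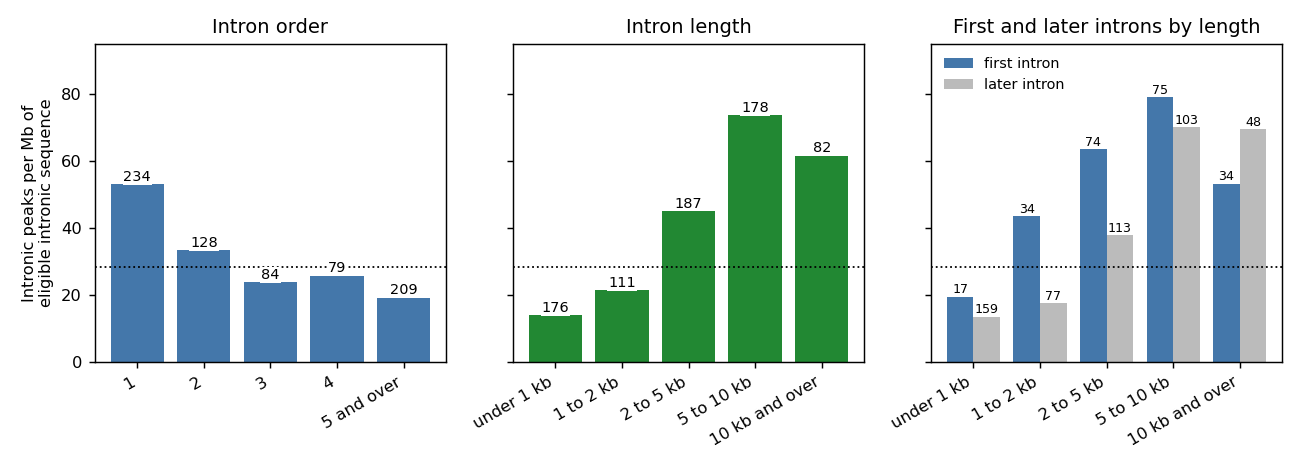
Intronic peaks per Mb of eligible intronic sequence by intron order, by intron length, and by both, with the number of peaks above each bar; the dotted line is the density over all eligible introns, 28.4 per Mb. Density was highest in first introns and in introns of 5 to 10 kb, and the ratio of first to later introns was nearest to 1 at 5 to 10 kb.

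Many intronic summits lay upstream of an internal start of their own host. The nearest start belonged to the host for 634 peaks (86.3%) and to another gene for 101. For 421 peaks (57.3%, exact 95% interval 53.6 to 60.9) at least 1 annotated start of the host lay downstream of the summit, while the same holds for 26.5% of the eligible bases. The density was 61.5 peaks per Mb in sequence with an own start downstream and 16.5 in sequence without one. Within 2 kb upstream of an own internal start, 183 peaks fell at 67.1 per Mb. Another 196 peaks (26.7%) were in hosts with 1 annotated start, for which no internal promoter is annotated.

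Distance from any start had a smaller range of densities. There were 31.5 peaks per Mb at 500 to 1000 bp, 31.7 at 1000 to 2000 bp, 25.8 at 2000 to 5000 bp and 17.7 beyond 5000 bp, where 41 peaks lay. The median distance was 1500 bp, and the farthest summit was 20207 bp from a start. The peaks beyond 5000 bp were no weaker, with a median percentile of 53.5 against 46.3 for those nearest to the limit. At the limit itself, the nearest summits inside were in zfp-1 at 505 bp, with a signal of 121, and in pod-2, which encodes acetyl-CoA carboxylase, at 509 bp with 46.3. Just outside it were summits in C34C12.7 at 500 bp with 37.2 and in unc-108, a Rab2 GTPase, at 498 bp with 69.8. In all, 335 summits lay in introns within the limit and were not taken.

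The X chromosome was the densest for intronic peaks. It held 183 of them, or 42.8 per Mb of eligible sequence, against 25.5 on the autosomes together, where chromosome II had 36.4, the highest of them, and chromosome V 16.7, the lowest. Strength did not differ in the same way, with a median percentile of 44.9 on X and 45.4 on the autosomes.

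Of the 494 hosts, which are 2.96% of the 16689 genes with eligible sequence, 346 held 1 intronic peak and 148 held several, 389 peaks in all. Neighbouring peaks of 1 host were a median of 1551 bp apart, and 69 of 241 such gaps were within 1000 bp. The host with the most was pkg-2, a cGMP-dependent protein kinase gene, with 8 peaks. Of these, 7 lay in intron 4, which is 6824 bp long, and 1 in intron 5. The strongest pkg-2 peak had a pooled signal of 191, with 93.0 in replicate 1 and 97.5 in replicate 2, and the weakest 38.9, with 19.9 and 22.9. A pair of pkg-2 summits fell in 1 merged interval and in the same peak of replicate 1, so the 8 summits stand for 7 intervals. By the stricter count, 7 of the 8 were among the strongest of both replicates.

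The genes daf-16 and ZK470.2 held 6 intronic peaks each, and 7 hosts held 5 each, of which abts-4, scd-1 and Y67D8A.2 had the strongest. The gene daf-16, which encodes the FOXO factor of the insulin pathway, had 4 peaks in its intron 3 and 2 in its intron 6. They were mostly weak, from 34.5 to 97.5, and 2 of the 6 were among the strongest of both replicates. The strongest daf-16 peak had 55.2 in replicate 1 and 43.9 in replicate 2 and lay 1590 bp upstream of an internal daf-16 start. ZK470.2 had its 6 peaks in 1 intron, none above a signal of 60.03. In abts-4, an anion transporter gene, the strongest peak had a pooled signal of 185, with 80.6 in replicate 1 and 107 in replicate 2. The strongest in scd-1 had 165, with 74.9 and 97.7, and the strongest in Y67D8A.2 had 150, with 54.7 and 107.

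Clusters of strong peaks marked pqn-41 and zfp-1. In pqn-41 all 4 peaks fell in intron 14, and with pooled signals of 341.5, 229, 180 and 168 all ranked 316 or better. Their replicate 1 signals ran from 75.5 to 144 and their replicate 2 signals from 89.8 to 197. In zfp-1, 3 peaks fell in intron 4 and 1 in intron 9, with pooled signals of 294, 235.4, 121 and 80.0. The zfp-1 peak in intron 9 had 133 in replicate 1 and 113 in replicate 2, and lay 709 bp upstream of an internal start.

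Hosts of intronic peaks often had a peak at a start as well. A thresholded summit lay within 500 bp of an own start in 171 of 494 hosts (34.6%, exact 95% interval 30.4 to 39.0), in 13.0% of the 16195 other genes with eligible sequence, and in 13.7% of all genes with such sequence. Hosts were longer, with a median span of 7685 bp against 2329 bp, and had a median of 2 annotated transcripts against 1. Among genes matched by their amount of eligible sequence the shares were 40.3% of hosts against 12.8% of other genes under 1000 bp, 35.5% against 14.4% at 2000 to 5000 bp and 25.3% against 15.7% at 10000 bp and over. The difference was thus smallest among the genes with the most intronic sequence. Of the 12 hosts of the strongest peaks, 5 had a start peak, namely pqn-41, Y111B2A.12, zfp-1, mnk-1 and Y43F8B.2, while egl-5 and mom-1 were among the 7 without. This counts summits only. The egl-5 interval, from 7814327 to 7816992 on chromosome III, also covers the 5′ end of the gene at 7814374, so that end was not free of signal.

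Many of the listed genes that time larval development and molting held intronic peaks. The 13 gene lists used here hold 369 genes, of which 54 were hosts. Of 16 molting-cycle and timing regulators, 8 (50%) were hosts, against 2.96% of all genes with eligible sequence, and their introns held 16 peaks at 209 per Mb, against 28.4 over all genes. They were myrf-1, lin-42, dre-1, lin-29, lin-14, bed-3, grh-1 and myrf-2. The 2.96% is not matched for the amount of eligible sequence. Hosts were 6.74% of all genes with 2000 to 5000 bp of it and 12.6% of those with 5000 to 10000 bp. In myrf-1, a membrane-bound transcription factor needed for molting, the strongest peak had a pooled signal of 108, with 52.7 in replicate 1 and 56.6 in replicate 2. The gene lin-42, the homolog of the circadian regulator Period, had 5 peaks in introns 1, 3 and 6, from 42.3 to 86.8, and the strongest had 56.6 in replicate 1 and 29.3 in replicate 2. In dre-1, an F-box gene that acts in developmental timing, the strongest peak was near the middle of the list at 58.6, with 40.3 in replicate 1 and 25.7 in replicate 2. The best-ranked peak in these 8 genes was that in myrf-1, at 889 of 4944, and 5 of the 8 hosts also had a peak at a start. The lists were written with earlier results of these data known, and they carry no test.

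Conserved nuclear receptors formed the next densest group. Of 16 genes, 5 were hosts, namely nhr-85, nhr-91, daf-12, nhr-48 and nhr-41, with 12 peaks at 197 per Mb. The strongest was in nhr-85, the homolog of mammalian REV-ERB, at 141, with 60.8 in replicate 1 and 82.1 in replicate 2. In nhr-91 the strongest had 117, with 74.7 in replicate 1 and 45.8 in replicate 2. The gene daf-12, whose steroid receptor sets developmental timing and dauer entry, had 5 peaks from 35.4 to 97.7 in introns 1, 2 and 3, of which the strongest had 55.2 and 43.4. The gene nhr-23 itself held no intronic peak in its 1981 eligible bases, and no summit of the replicate 1, replicate 2 or pooled list lay within the gene. The transgene wgIs43 targets nhr-23 and its copy number is not given, and whether this bears on signal at the gene was not tested. The absence is therefore not read as lack of binding.

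Other transcription factor genes held fewer peaks per Mb than the nuclear receptors, and more than all genes together. Of 11 epidermal and seam cell factors, 4 were hosts (elt-3, egl-18, bro-1 and elt-1), with 6 peaks at 169.5 per Mb, all of them weak. The strongest were in the GATA factor gene elt-3 at 52.9, with 22.8 in replicate 1 and 33.6 in replicate 2, and in egl-18, also a GATA factor gene, at 50.1, with 21.4 and 26.8. The peak in bro-1, the CBF-beta homolog, had 39.7 and was found in replicate 2 only, at 30.9. Of 31 other developmental factors, 7 were hosts, with 20 peaks at 141 per Mb. Here jun-1 reached 213.5, with 64.5 in replicate 1 and 158 in replicate 2, and skn-1, the Nrf homolog, 168, with 88.0 and 82.0. Of 6 Hox genes only egl-5 was a host, with 2 peaks, or 108 per Mb. Both summits belong to 1 interval, so this density counts 1 occupied region through 2 summits.

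Molting and apical matrix genes and signalling genes held more intronic peaks per Mb than all genes together. Of 33 molting and apical matrix genes with eligible sequence, 4 were hosts (mlt-9, egg-6, ptr-4 and noah-2), with 7 peaks at 105 per Mb. The strongest had a signal of 88.2 in mlt-9, with 38.3 in replicate 1 and 53.8 in replicate 2, of 81.1 in egg-6, with 25 and 59.9, and of 73.3 in the Patched-related gene ptr-4, with 47.3 and 35.5. Of 20 TGF-beta pathway genes, daf-5, sma-9 and daf-14 were hosts, with 7 peaks at 125 per Mb. The daf-5 peak had 125, with 59.9 and 65.1, and the sma-9 peak 120, with 48.9 and 73.2. The daf-14 peak was uneven, with 10.6 in replicate 1 and 52.6 in replicate 2.

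Of the 28 genes in the Wnt pathway list, which does not include mom-1, lit-1, the Nemo-like kinase gene, was the only host. That is 3.57% of the list, near the 2.96% of all genes with eligible sequence. The 5 peaks of lit-1 alone gave the list its 55.8 peaks per Mb, against 28.4 over all genes. The strongest lit-1 peak had 114, with 42.5 in replicate 1 and 71.5 in replicate 2. In the EGF, Ras and Notch pathways 4 of 26 genes were hosts, at 49.1 peaks per Mb. They included lin-1, an ETS factor gene, at 122.5, with 51.7 and 70.1, lag-1, the Notch effector of the CSL family, at 120, with 55.7 and 66.3, and sos-1, a Ras exchange factor gene, at 80.5, with 24.8 and 55.6. Of 30 junction and attachment genes 7 were hosts, at 64.4 peaks per Mb, led by vab-10, which encodes a spectraplakin, at 81.2, sax-7, an L1-type adhesion gene, at 74.2, and the cadherin gene hmr-1 at 67.6.

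Ion channel, synaptic and muscle genes held few intronic peaks per Mb of their eligible sequence. Their share of hosts was not below the 2.96% of all genes, but that value is not matched for the amount of eligible sequence. Over all genes the share of hosts was 0.589% under 1000 bp of it, 6.74% at 2000 to 5000 bp, 12.6% at 5000 to 10000 bp and 27.1% at 10000 bp and over. Of 60 ion channel and synaptic genes, 4 (6.67%) were hosts (clh-1, unc-2, deg-1 and unc-104), with 5 peaks at 12.3 per Mb, the strongest in the chloride channel gene clh-1 at 81.2, with 38.4 in replicate 1 and 51.6 in replicate 2. Of 33 muscle structure genes only dys-1 (3.03%), the dystrophin gene, was a host, with 1 peak at 74.4, with 36.9 and 41.7, or 7.38 per Mb. Of 52 axon guidance and basement membrane genes 5 (9.62%) were hosts, at 32.4 per Mb, close to the 28.4 of all genes. The highest of these were in the semaphorin gene smp-1 at 63.1, the perlecan gene unc-52 at 59.8 and the ephrin gene efn-2 at 49.4.

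Intronic summits lay beside nested tRNA genes more often than eligible sequence does. The positional rule used starts of protein-coding transcripts only, so starts of non-coding genes inside introns were free to lie near. It excluded exons of every gene type, however, so summits inside tRNA, snoRNA or other non-coding exons were not taken. Counts, distances, sides and signals below thus describe summits outside those exons only. With only protein-coding exons excluded, 806 peaks were intronic in place of 735, and how many of the added summits lay in tRNA or snoRNA genes was not counted. A tRNA start was within 500 bp of 31 summits (4.22%, exact 95% interval 2.88 to 5.93) but of 0.399% of eligible bases, which gives 300.5 peaks per Mb. These 31 summits were in 31 hosts and beside 31 different tRNA genes, of 290 that lie inside protein-coding genes. All 31 were within 88 bp of an edge of the tRNA gene, at a median of 30 bp, and 27 lay upstream of its start. The peaks beside tRNA genes were weak, with a median percentile of 36.0, and 20 of the 31 were among the strongest of both replicates. The strongest was in cye-1, the cyclin E gene, with a pooled signal of 92.6, 46.6 in replicate 1 and 43.6 in replicate 2, and its summit was 43 bp upstream of the tRNA. Next came T03G6.3 at 75.6, with 40.8 and 43.7, and the anion transporter gene sulp-3 at 74.7, with 43.5 and 32.4. Of these 31 windows, 3 held the nuclear receptor core element.

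Nested snoRNA genes showed the same closeness with stronger peaks. A snoRNA start lay within 500 bp of 11 summits (1.497%) but of 0.248% of eligible bases, and all 11 were within 67 bp of the snoRNA gene. Their median percentile was 69.4, and 10 of 11 were among the strongest of both replicates, though none held the core element. The strongest was beside C16D9.11 in rol-3, a receptor tyrosine kinase gene, with a pooled signal of 144.5, 70.5 in replicate 1 and 72.4 in replicate 2. The next was beside C08D8.3 in C08D8.1 at 119, with 56.3 in replicate 1 and 62.0 in replicate 2. A single snRNA gene, R07E5.16 in the dynein heavy chain gene dhc-4, lay 28 bp from a summit of 189, with 104.5 and 86.5.

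Starts of miRNA genes were near 7 summits (0.952% against 0.170% of eligible bases), but less close to them, at a median of 329 bp from the gene. The strongest was 329 bp upstream of cel-mir-54, in F09A5.3, with a pooled signal of 159.5, 83.6 in replicate 1 and 78.8 in replicate 2. A pair flanked cel-mir-58a in Y67D8A.2, at 94.8 and 75.4, and the stronger of these was not in replicate 1's list. Starts of genes annotated only as ncRNA were near 106 summits (14.4% against 4.75% of eligible bases), whereas piRNA starts were near 18 (2.45% against 4.07%). In all, 50 summits (6.80%) lay within 500 bp of a tRNA, snoRNA, miRNA or snRNA start.

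**Figure D3:**
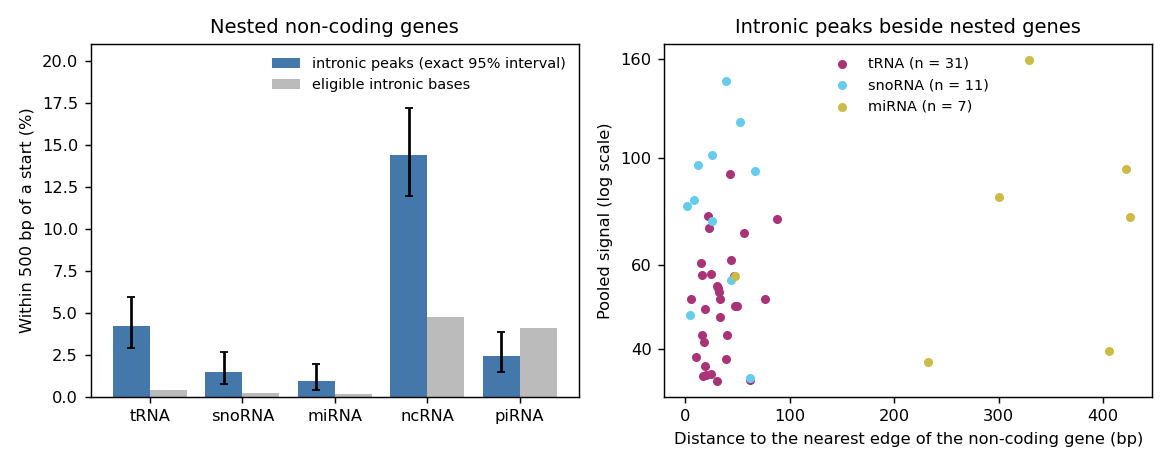
Left, share of the 735 intronic peaks (blue, with exact 95% intervals) and of eligible intronic bases (grey) within 500 bp of the start of a non-coding gene, by gene type. Right, pooled signal (log scale) of the peaks near tRNA, snoRNA and miRNA genes against the distance from summit to the nearest edge of that gene. The 31 tRNA points and 11 snoRNA points all lie within 88 bp. Summits inside exons of these genes were excluded by the positional rule and are not shown.

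The nuclear receptor core element, AGGTCA or GGGTCA on either strand, was found within 50 bp of 106 intronic summits (14.4%, exact 95% interval 11.96 to 17.2). It was in 11.0% of all thresholded peaks, in 8.23% of those near starts and in 12.9% of distal ones. Over 211934 windows of the same length tiled across eligible introns it was in 3.65%, and in 4.85% of the other windows of introns with a peak. Read with its bases in reversed order, as a string of the same composition, it was in 45 intronic peaks (6.12%) and in 4.28% of the tiled windows. Matches per kb were 0.408 at 450 to 500 bp before the summit and 0.653 at the same distance after it, against 1.63 and 1.66 in the bins on either side of the summit, while the reversed string had 0.435 and 0.789 there. The element did not come with a higher rank, since the median percentile was 45.3 for the 106 peaks with it and 45.3 for the 629 without. The full ROR element, which adds an A/T-rich stretch before the core and therefore overlaps it, was in 9 intronic peaks (1.22%) and in 0.273% of the tiled windows. It was in 1.09% of all thresholded peaks, 0.643% of those near starts and 1.64% of distal ones, so the intronic share was near that of the whole list.

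Of the strings searched, GAGAGA differed most, as a ratio, between intronic summits and tiled windows. It was found in 222 of them (30.2%, exact 95% interval 26.9 to 33.7), in 26.5% of all thresholded peaks, in 23.7% of those near starts and in 30.4% of distal ones, against 3.88% of tiled windows. Peaks with it had a median percentile of 51.1 and those without it 43.9. At 10 kb and over it occurred in 41.2% of peaks in first introns and in 39.6% of those in later introns. Under 1 kb it was in 11.8% of the 17 peaks in first introns, which is 2 peaks, and in 22.6% of the 159 in later introns. Both strings stood together in 21 intronic peaks, the core element alone in 85, GAGAGA alone in 201, and neither in 428, which is 58.2%. None of the 9 windows printed above holds GAGAGA.

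Other short strings were searched in the same windows. The GATA-type string TGATAA was in 12.8% of intronic peaks, 9.69% of all thresholded peaks and 8.40% of tiled windows. For the E-box CANNTG these shares were 39.3%, 39.6% and 23.9%. A run of 8 T was in 4.35% of intronic peaks, 4.33% of all thresholded peaks and 20.3% of tiled windows. The E-box and T-run shares of intronic peaks were thus close to those of the whole list. Base composition moved with all of these, as the median GC content was 42.6% in intronic peaks, 31.7% in tiled windows and 34.7% in the other windows of introns with a peak, and its part in the shares was not tested. A match describes these letters at these positions and does not show a bound site.

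**Figure D4:**
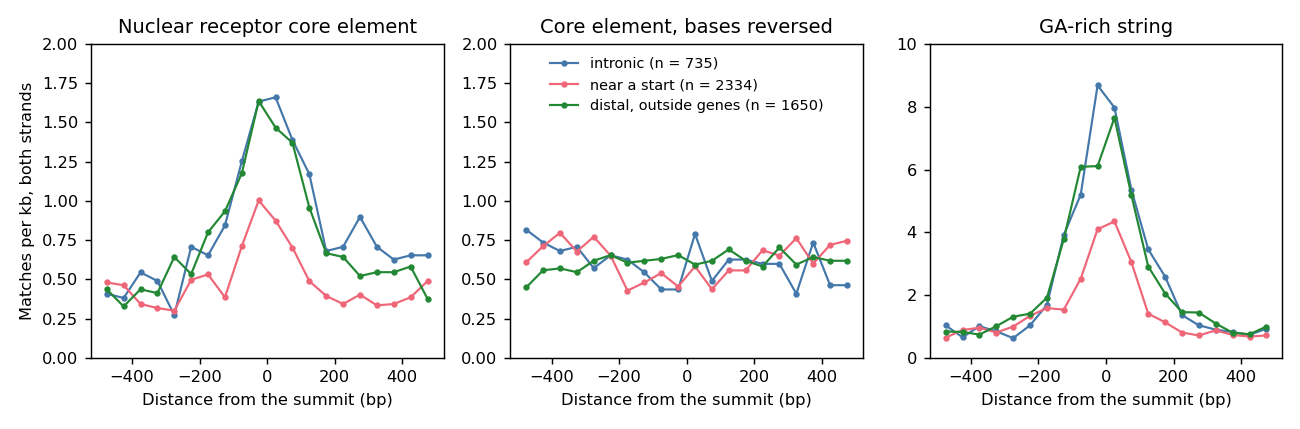
Matches per kb on both strands in 50 bp bins around the summit for the nuclear receptor core element (left), the same bases in reversed order (middle) and GAGAGA (right), in intronic peaks (735, blue), peaks near a start (2334, red) and distal peaks outside genes (1650, green). The core element and GAGAGA peaked at the summit of intronic peaks and the reversed string did not.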

How the data were processed

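ChIP-seq peak lists of 2 biological replicates of 1 group were used, on the assembly ce11 per the labels. Per the deposited text files, the authors called peaks for each replicate against a control and on both replicates pooled, and derived the thresholded list by an irreproducible discovery rate procedure. Aligner, peak caller, versions and the procedure's threshold: not given in the sources used here. The deposited signal value of each peak is the authors' own, and was used only to describe and rank the peaks of 1 list at a time. The −log10 q-values that the authors deposited (p-value column unused) reached 1 shared maximum in the thresholded list and were not used for ranking. The thresholded peaks were the 4944 strongest of the pooled list of 30000, so membership follows pooled rank and does not show recurrence.

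Genes were from Ensembl release 115 on WBcel235, the assembly ce11, with 19973 protein-coding genes outside the mitochondrial genome. The host was the shortest protein-coding gene holding the summit; 2 peaks had several hosts, and 1 lay in no intron of a protein-coding transcript. Eligible bases are all bases that meet the positional rule. A summit was matched to the strongest replicate peak holding it. Introns, strings and densities were computed in Python 3.11.15 with numpy 2.4.6, scipy 1.17.1 and matplotlib 3.10.9, with exact (Clopper-Pearson) 95% binomial intervals. Position classes and intron order were checked against a direct search at random positions of the genome. The core element search was checked on simulated strings with the element planted. No test was made, since 1 group allows none and peaks are not replicates. Named genes were the hosts of the 12 strongest peaks, 1 per interval, the 6 hosts with the most peaks, up to 3 hosts with the strongest peak of each list, the peaks nearest to the limit, and nhr-23. The hosts beside nested non-coding genes, and list members named without values, fall outside this rule and were chosen after their values were seen. The lists held 369 genes, matched by symbol. The members and lists were chosen with earlier results of these data known. Alternatives were other limits, exon and start definitions, motif windows, replicate lists and subsets. The ce10 lists were not used.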

Additional observations from a re-analysis of the deposited data

How the results depend on the processing

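Of 100 alternatives to 10 results, 23 moved, where a count was taken as moved past a ratio of 1.5, a share outside the exact 95% interval of the reported one, and a median by the SD between replicates or more. Counts within that ratio still ranged from 529 (1000 bp limit) to 874 (250 bp) intronic peaks and from 352 (strongest of both replicates) to 582 (250 bp) hosts. With the stronger part of the thresholded list, the number of intronic peaks was 333, their share 13.5%, the number of hosts 260, the share with GAGAGA 34.2% and the share of hosts with a start peak 20.8%. With a limit of 250 bp the intronic share was 17.7% and the share of hosts with a start peak 42.4%; with 1000 bp the intronic share was 10.7% and the median intron 3726 bp. Counting exons of protein-coding genes only gave an intronic share of 16.3%, and starts of every annotated transcript 11.9%. The lowest intron order in any transcript put 44.8% in a first intron. Windows of 25 bp and 100 bp around the summit gave the core element in 6.39% and 25.2% and GAGAGA in 17.8% and 45.2%. A start window from 1500 bp upstream gave 56.3% of hosts. Among as many peaks of each replicate cut to fewer, 30.9% were in both, and with all replicate peaks 96.7%. Of alternatives chosen after seeing the data, peaks among the strongest of both replicates gave 482 intronic peaks and 29.6% of hosts with a start peak, and leaving out the egl-5 interval moved none of the results it was run on. The cause of these shifts beyond the changed definition was not tested.

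Using the strongest peaks of 1 replicate in place of the thresholded list gave 730 to 763 intronic peaks, 14.8% to 15.4% of peaks, 490 to 509 hosts, 31.5% to 33.1% in a first intron, a median intron of 2675 to 3262 bp, a median percentile of 45.6 to 47.2, the core element in 13.0% to 14.5%, GAGAGA in 26.6% to 29.6% and a start peak in 33.3% to 35.8% of hosts. Among these values, the share with GAGAGA without replicate 2 (26.6%) and the median percentile without replicate 1 (47.2) counted as moved. No paired analysis was possible because the labels give 1 group. Depth is unknown, so a site missing from a list may be below detection.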
